A study of Homo sapiens with 4 samples.

Results

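The transcripts that CWR22Rv1 cells express without any knockdown were described from the 2 control arrays of a series of 4 Illumina expression bead arrays. CWR22Rv1 (22Rv1) is a human line of prostate carcinoma established from a castration-relapsed xenograft. The 2 arrays, replicates 1 and 2, carried RNA from cells with pLKO.1, the lentiviral vector that serves as the control for an shRNA against Siah2, and the other 2 arrays of the series were not used here. All cells were grown in RPMI1640 with fetal bovine serum under puromycin, the drug that selects for the vector, so the profile is that of a selected, vector-carrying population of a single line and not of untouched cells. Nothing in the labels states that the numbered replicates came from separate cultures, so the spread between the arrays may be technical. A probe was called detected if its deposited detection p, which ranks its signal among negative control beads, was under 0.01 on both arrays. That rule took 15564 of 47228 probes (33.0%), and at the gene level 9698 of 13321 named genes (72.8%), a gene being represented by its brightest detected probe. Only probes of the authors' value table, which holds all detected probes, could be named, so the share of 72.8% favours detected genes.

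Prostate epithelium has secretory luminal cells, which carry keratins 8 and 18, E-cadherin and tight junction claudins, and which express a set of androgen-driven secreted and membrane proteins, and an outer basal layer marked by other keratins and by p63. Scattered neuroendocrine cells store peptides in dense-core granules, and prostate carcinoma can acquire such features after androgen withdrawal. Steroid hormones reach these cells from the blood, can be made or reduced inside them by enzymes such as the AKR1C family, and are removed by conjugation to glucuronic acid through UGT2B enzymes.

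Replicate 1 had 15939 probes and replicate 2 had 17720 probes with a detection p under 0.01, which are 33.7% and 37.5% of all probes. The mean signal was 675.0 on replicate 1 and 846.2 on replicate 2. The number of arrays limits the precision, and no test was made because all values belong to a single group. Among the detected probes the arrays correlated at a Pearson r of 0.987 and a Spearman rho of 0.979 across probes, which are not independent replicates. Replicate 2 was the brighter array, by a median of 0.34 on the log2 scale (1.27-fold), and the SD of the difference was 0.283. Because the deposited signals were averaged without normalization, this offset is part of the SD given with each mean. After it was subtracted, 92.6% of the detected probes lay within 0.5 of equality on the log2 scale, and 26 probes differed by over 2-fold. At the edge of the rule, the 39 probes whose higher detection p was 0.00909 had median signals of 162.2 and 180.7, and the 100 probes just outside, at 0.01039, had medians of 161.5 and 179.9. The lowest signal that passed was 162.0 on replicate 1 and 162.3 on replicate 2, the median over all detected probes was 8.97 on the log2 scale (502.7 on the linear scale), and the top 1% began at 15.07.

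**Figure D1:**
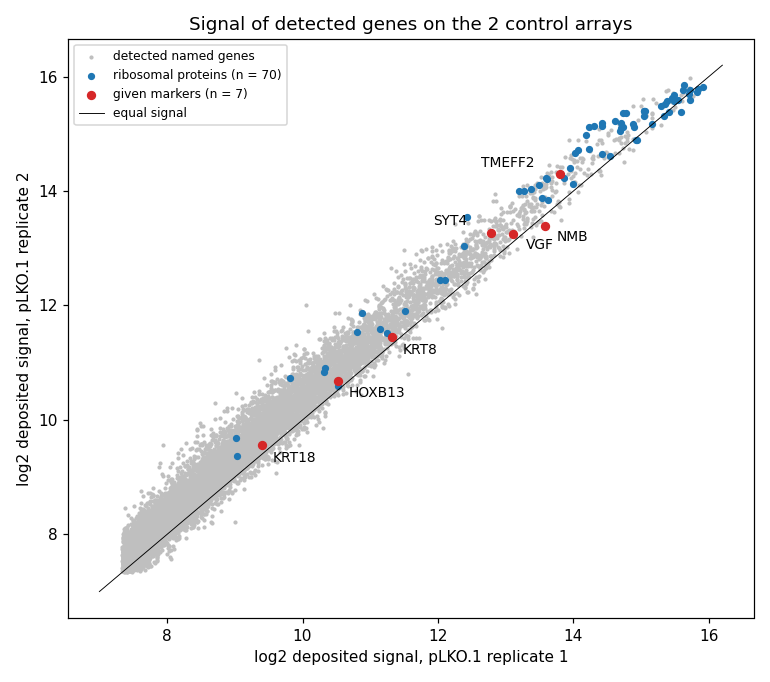
Log2 deposited signal of each detected named gene on pLKO.1 replicate 1 (x axis) and replicate 2 (y axis), with 70 ribosomal protein genes in blue and the 7 given markers in red. The line marks equal signal, and most points lie above it because replicate 2 was brighter by a median of 0.34.

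A probe's signal depends on how well that probe binds as well as on the transcript, so a rank here orders signals and is not a measure of transcript number per cell. Each gene is placed by its percentile among the 15564 detected probes, and pairs of signals are given for replicate 1 and then replicate 2.

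Among named genes, the brightest most often encoded ribosomal proteins. Of the 40 brightest probes, however, 24 carried no name here and are not part of this count. Of the 40 named genes with the highest mean signal, 20 encoded cytosolic ribosomal proteins, 3 were tubulins or actins, 1 was a translation factor, 1 a subunit of the mitochondrial ATP synthase and 1 a histone, and 6 were pseudogene entries, 4 of them named for ribosomal protein genes (RPL13AP20, RPL13AP5, RPSAP9 and RPS26P11). Ribosomal proteins made up 0.722% of all detected named genes. RPL41, a protein of the large ribosomal subunit, had signals of 61714.6 and 57580.0, and EEF1A1, the elongation factor that brings aminoacyl-tRNA to the ribosome, had 54154.5 and 64446.7. ATP5F1B, the catalytic beta subunit of ATP synthase, had 55982.4 and 52072.3. TMSB10, a thymosin that binds actin monomers, ACTB and ACTG1, the cytoplasmic actins, TUBA1A, an alpha-tubulin, TPT1 and GAPDH, a glycolytic enzyme, were also among the 40. All signals of these 40 genes lay between 32639.8 and 64446.7. The highest signal of any probe was 62946.4 on replicate 1 and 64446.7 on replicate 2. Whether signals near that maximum still follow the amount of transcript was not tested. Of the 40 genes, 28 were brighter on replicate 2 and 12 on replicate 1. Their median difference of 0.14 was smaller than that over all detected probes.

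Some names in that top group rested on single probes that other probes of the same gene did not share. The brightest CLUAP1 probe had signals of 50184.2 and 53742.8, whereas its 4 other probes, all detected, lay between 229.3 and 802.1. F2R, the thrombin receptor, had 32639.8 and 45835.5 on 1 probe and 137.4 and 146.3 on another, which was not detected. The pseudogene entries RRP7BP and SLC7A5P2 were likewise bright on 1 probe and not detected on another. Ribosomal protein genes showed it too: RPL32 had 50168.1 and 55820.8 on 1 probe and between 196.7 and 616.1 on its 3 others, and the second RPL37A probe (155.5 and 207.8) was not detected. LAIR1, known as an inhibitory receptor of leukocytes, had 53513.3 and 56897.6 on its only named probe. Which transcripts these bright probes bound was not tested.

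The ribosomal protein genes also shared a feature of sequence that the ranking did not use. Their messenger RNAs are known to begin with a C followed by a run of pyrimidines, the 5′ terminal oligopyrimidine (TOP) tract through which growth signals control their translation. RefSeq promoter sequences (GRCh38.p14) were searched from 5 bases before to 10 bases after the annotated start for the letters CTTTT, for the form with C at its end (CTTTC), for the form with C as the third letter (CTCTT) and for CTTCC. On the sense strand such a match was present in 42 of the 59 detected ribosomal protein genes with a promoter in the table (71.2%), in 10.4% of 7943 detected named genes and in 8.30% of all 27305 promoters. On the opposite strand it was present in 1.69% of the ribosomal protein genes and 5.48% of all promoters. Among the 100 named genes of highest signal, 31 of 74 with a promoter held it (41.9%), and 7 of 39 (17.9%) did once ribosomal proteins were set aside. The match may occur by chance in any pyrimidine-rich start, and its absence says only that these letters are not in that window. The windows below run from 20 bases before to 10 bases after the start, are shown because they carry such a match or lack it, and have the matched letters in capitals. RPLP2 holds 2 overlapping matches, and RPL32, a ribosomal protein gene, and the prostate, peptide and vesicle genes TMEFF2, KLK4, NMB, VGF and SYT4 hold none at the annotated start. The tract was not limited to ribosomal protein genes, and ALB and AKR1D1, a pair of genes known from liver, hold a match.
RPL41, chr12:56116613-56116642, plus strand: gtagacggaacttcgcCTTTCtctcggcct
RPLP2, chr11:809947-809976, plus strand: gcctcttgcgtcggcgcCTTCCTTTTcctc
RPS27, chr1:153990742-153990771, plus strand: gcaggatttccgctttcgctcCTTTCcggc
RPL32, chr3:12841556-12841585, minus strand: cccaggggttacgacccatcagcccttgcg
TMEFF2, chr2:192194924-192194953, minus strand: cctgctgcttcccaaacgccagagggatgc
KLK4, chr19:50910729-50910758, minus strand: catccccaggtgctgacgtgatggccacag
NMB, chr15:84658190-84658219, minus strand: cgaaggcagccccggagcccagcggccggg
VGF, chr7:101165560-101165589, minus strand: tggaggcgcgggcgctgtccagcgtgctga
SYT4, chr18:43277481-43277510, minus strand: gtctcggagacgagcttctcagaagagcca
ALB, chr4:73404267-73404296, plus strand: ctaatttccctccgtttgtcctagCTTTTc
AKR1D1, chr7:138076439-138076468, plus strand: gatggaataggccctaggacacCTTTCtaa

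Nearly all genes of the basic machinery were detected, and most were bright. Of 72 named cytosolic ribosomal protein genes 70 were detected, 97.2% against 72.8% of all named genes. Their median percentile was 98.7, against a median of 55.0 over all detected named genes. The 2 not detected, RPL10L and RPL3L, are paralogs known from testis and from muscle. Of 74 subunits of oxidative phosphorylation 73 were detected (98.6%, median percentile 94.7). So were 31 of 33 proteasome subunits (93.9%, median percentile 89.4) and 47 of 49 translation factors (95.9%, median percentile 85.2). The 2 proteasome genes not detected on both arrays were PSMB8 and PSMB9, which encode catalytic subunits of the interferon-induced immunoproteasome. Of these, 1 passed on replicate 2 alone. All 21 named housekeeping genes were detected, from TBP at percentile 50.9 to EEF1A1.

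**Figure D2:**
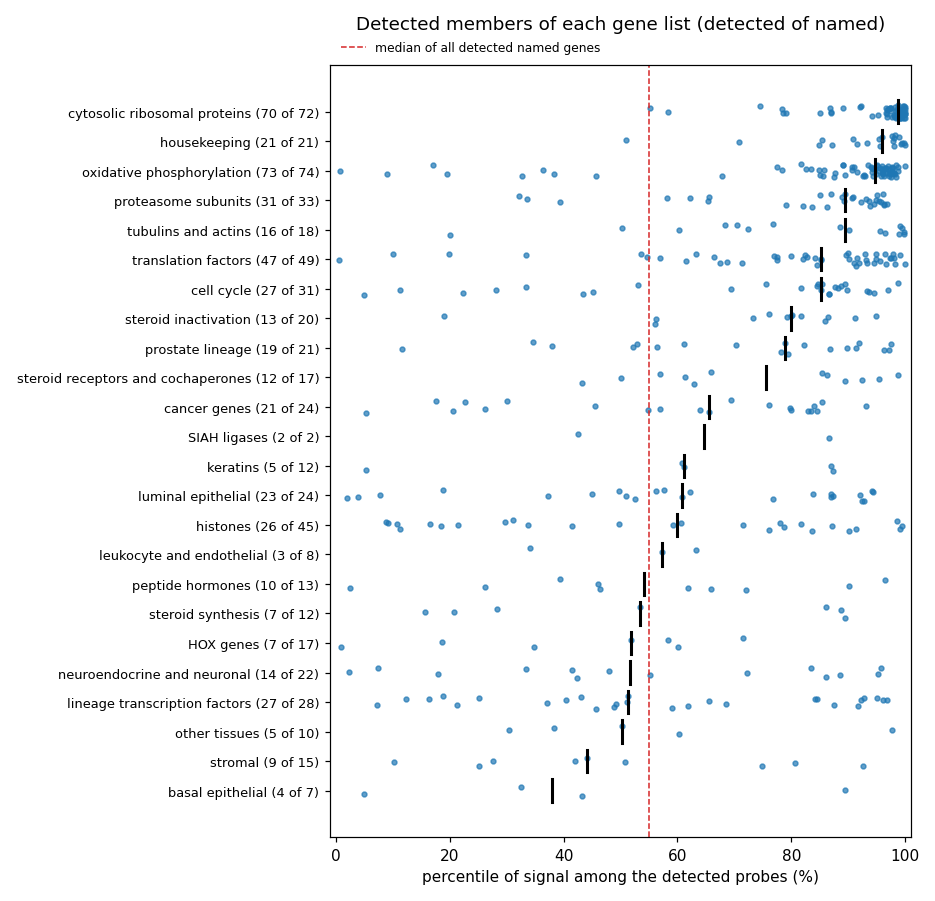
Percentile of signal among the detected probes (x axis) of each detected member of 24 gene lists, with the number detected of those with a named probe. Dots are genes, black bars list medians, and the dashed line is the median of all detected named genes, 55.0.

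The luminal epithelial program was present. Of 24 named luminal genes 23 were detected, 95.8% against 72.8% of all named genes, and OVOL1 was the exception, with signals of 122.8 and 151.4. KRT8, a keratin of simple epithelia, had 2555.1 and 2799.8, a mean of 11.39 ± 0.0933 on the log2 scale (SD, n = 2) at percentile 87.0. Its partner KRT18 had 676.7 and 752.0 (9.48 ± 0.108, SD, n = 2), at percentile 60.8, and a second KRT18 probe had 320.0 and 389.1. Both arrays thus held the keratin pair, well above the edge of detection. KRT19, another simple epithelial keratin, had 2422.0 and 3110.5. CDH1, which encodes E-cadherin, had 3782.3 and 6163.9, and EPCAM, an epithelial adhesion molecule, had 4623.2 and 6081.0. The brightest of the list were the tight junction gene CLDN7, with 5535.6 and 8536.4, and the protease inhibitor gene SPINT2, with 6241.5 and 7201.3. Splicing regulator gene ESRP1 (215.0 and 255.1), CLDN4 (178.5 and 208.0), RAB25 (169.9 and 193.3) and MUC1 (180.8 and 167.8) were detected near the edge. The list's median percentile was 60.8, with 10 of the 23 above the 75th percentile, where 27.2% of all detected named genes lay.

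Prostate genes ranked higher. Of 21 named genes of prostate lineage 19 were detected, 90.5% against 72.8% of all named genes. The 19 had a median percentile of 78.9, and 11 lay above the 75th. TMEFF2, a transmembrane protein with follistatin-like domains, was the brightest, with 14303.9 and 20257.1 (14.06 ± 0.355, SD, n = 2), at percentile 97.5. KLK4, a kallikrein protease, had 12197.9 and 17797.3, and FOXA1, the pioneer factor that opens chromatin for steroid receptors, had 9583.4 and 13374.4. HOXB13, the homeobox gene that marks prostate epithelium, had 1469.3 and 1650.4 (10.60 ± 0.119, SD, n = 2), at percentile 78.9. These genes were far above detection on both arrays. Membrane protein genes followed, among them SLC45A3 (prostein) with 3491.5 and 5564.8, STEAP1 with 2617.0 and 5016.8, and FOLH1, which encodes prostate-specific membrane antigen, with 2224.2 and 3109.8. SPDEF, an ETS factor of secretory epithelium, had 1583.3 and 1631.7, and GATA2, a factor that acts beside FOXA1, had 714.9 and 730.8.

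Other classical prostate products were dim. TMPRSS2, the androgen-induced serine protease gene, had 495.7 and 602.5, at percentile 52.9. AMACR, an enzyme of branched fatty acid oxidation used as a carcinoma marker, had 285.8 and 384.8 on the brightest of 3 probes. ACP3, which encodes prostatic acid phosphatase, had 181.1 and 233.8, close to the edge of detection. PSCA (148.3 and 136.3) and the single named probe of KLK2 (124.9 and 138.6) were not detected on either array. KLK3, which encodes prostate-specific antigen, had no named probe and was not analysed here. TARP, a transcript of the T cell receptor gamma locus that prostate cells make, had 242.3 and 533.5, an SD of 0.805 on the log2 scale, the widest spread of the list.

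**Figure D3:**
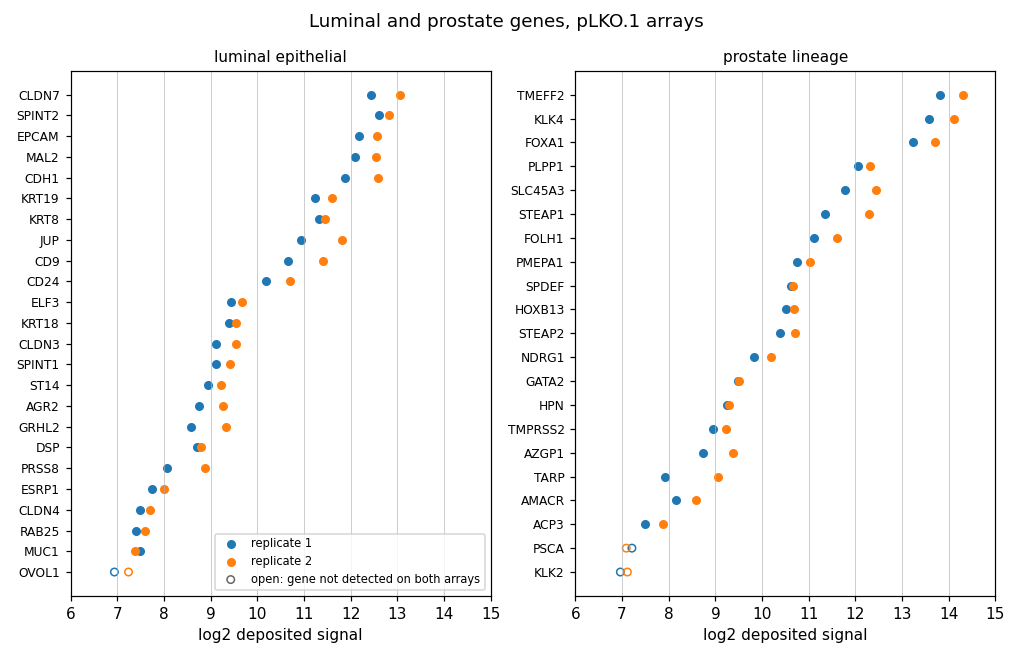
Log2 deposited signal (x axis) of the named luminal (left) and prostate lineage (right) genes on pLKO.1 replicates 1 (blue) and 2 (orange). Open circles mark genes not detected on both arrays, which were OVOL1, PSCA and KLK2.

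Neuroendocrine genes were expressed selectively. Of 22 named genes 14 were detected, 63.6% against 72.8% of all named genes, and their percentiles ran from 2.27 to 95.7. VGF, a neuropeptide precursor of dense-core granules, had 8866.9 and 9759.8 (13.18 ± 0.0979, SD, n = 2), and SYT4, a synaptotagmin of secretory vesicles, had 7057.6 and 9891.1 (13.03 ± 0.344, SD, n = 2). The neuronal tubulin gene TUBB3 had 2895.1 and 3398.8, CPE, which encodes the peptide-trimming carboxypeptidase E, had 2170.5 and 2919.6, and ENO2, neuron-specific enolase, had 1678.9 and 2503.2. These 5 genes were the only members above the 75th percentile. PCSK1N, an inhibitor of prohormone convertase, had 1197.7 and 1036.3.

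Unlike ENO2, the markers SYP, CHGA, CHGB and NCAM1, also used to name neuroendocrine cells, were low or not detected. SYP, which encodes synaptophysin, had 304.4 and 339.7, at percentile 33.4. CHGA (139.1 and 130.3) and CHGB (146.2 and 130.8), the chromogranins, and NCAM1 (128.6 and 114.8), an adhesion molecule of neural cells, were not detected on either array. Among transcription factors of the neuroendocrine state, POU3F2 had 227.9 and 232.5 and INSM1 had 167.8 and 183.7, both detected, whereas SOX2 at 128.6 and 139.4 was not. ONECUT2 lay at percentile 48.1 with 394.9 and 569.8. REST, the repressor of neuronal genes, had 154.5 and 165.6 and passed on replicate 2 alone, as did the synaptic gene SNAP25 with 139.0 and 170.3. The other granule and vesicle genes of the list were lower than VGF and SYT4. SV2A, a synaptic vesicle glycoprotein gene, had 479.0 and 727.6, and SCG3, a secretogranin, had 345.7 and 468.6, while SCG2 (134.0 and 154.2) and SCG5 (111.1 and 122.2) were not detected on either array.

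Peptide hormone genes showed the same spread. Of 13 named genes 10 were detected, 76.9% against 72.8% of all named genes. Their median percentile was 54.2, against 55.0 over all detected named genes. NMB, which encodes the bombesin-like peptide neuromedin B, had 12224.5 and 10702.7 (13.48 ± 0.136, SD, n = 2), at percentile 96.4, and was higher on replicate 1 although that array was the dimmer one. NTS, the neurotensin precursor, had 2843.1 and 4947.1 (11.87 ± 0.565, SD, n = 2), at percentile 90.1. NPY, neuropeptide Y, had 971.8 and 1265.7, GCG, the glucagon precursor, had 658.5 and 1131.8, and GAL, the galanin precursor, had 720.6 and 769.4. All 5 of these secreted peptide genes lay above the median of the detected named genes. CALCB (417.9 and 490.5), a calcitonin gene-related peptide, GDF15 (443.4 and 448.0), a stress-induced cytokine, ADM (356.5 and 387.3) and UCN (218.0 and 343.9) were dimmer, and EDN1 (166.5 and 186.8) lay at the edge. CALCA (147.9 and 142.8) was not detected.

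**Figure D4:**
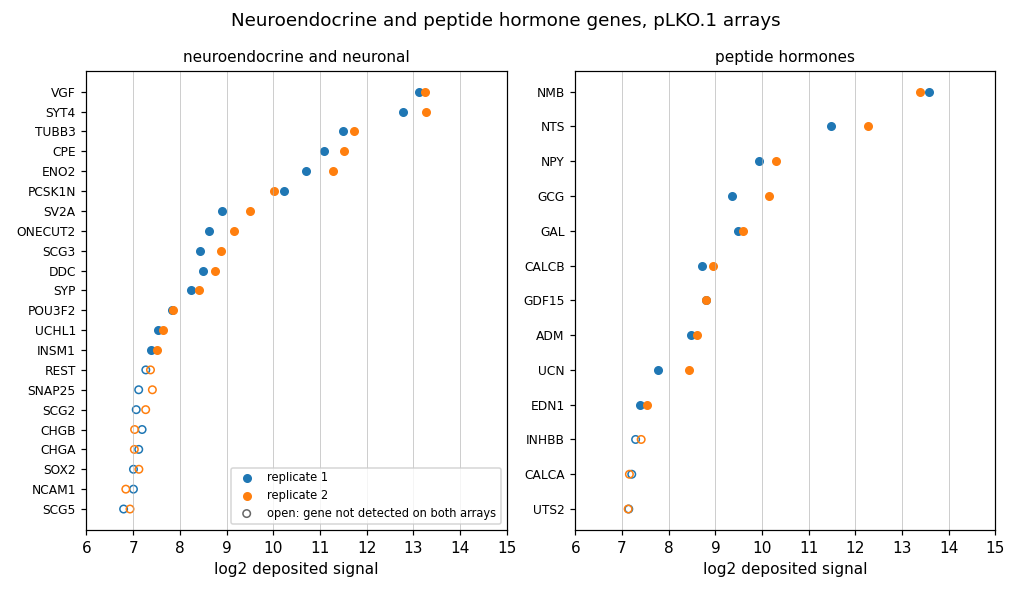
Log2 deposited signal (x axis) of the named neuroendocrine and neuronal (left) and peptide hormone (right) genes on pLKO.1 replicates 1 (blue) and 2 (orange). VGF, SYT4 and NMB exceed 12.7 on both arrays, while open circles mark 8 and 3 genes that were not detected on both.

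Stromal genes were detected in part. Of 15 named stromal genes 9 were detected (60.0%, against 72.8% of all named genes), at a median percentile of 44.2. VIM, the intermediate filament vimentin of mesenchymal cells, had 5003.8 and 5368.1 (12.34 ± 0.0717, SD, n = 2), at percentile 92.5, and a second VIM probe had 3171.0 and 3031.2. CALD1, an actin-binding protein gene, had 1492.1 and 1998.0, on the brightest of 3 probes that ranged down to 167.1. LUM, a collagen-binding proteoglycan, had 1022.2 and 1537.7, and DCN, a related proteoglycan, had 338.8 and 467.7 on 1 probe and 128.8 and 125.9 on another. Of the named collagen genes, COL6A2 was detected, at 199.9 and 200.9, and COL6A1 (146.0 and 164.0) was not. The collagen I genes COL1A1 (136.8 and 183.3) and COL1A2 (109.4 and 137.6) and the fibronectin gene FN1 (127.9 and 152.3) were not detected on both arrays, and COL1A1 and COL6A1 passed on replicate 2 alone. TWIST1, a factor of mesenchymal transition, had 419.8 and 628.6, and CDH2, N-cadherin, lay at percentile 27.6, and both were detected.

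Few basal genes had a named probe. Of 7 named genes 4 were detected (57.1%, against 72.8% of all named genes). SFN, the 14-3-3 sigma gene, had 3041.6 and 3865.2, and the other detected members, ITGA3, CD44 and LAMB3, lay at or below percentile 43.2. KRT15 (150.0 and 161.6), a basal keratin, was not detected, nor were ITGB4 (120.5 and 146.3) and NGFR (88.7 and 116.0). A further 11 members of the list had no named probe. Of all 12 named keratin genes 5 were detected (41.7%, against 72.8% of all named genes). They were KRT19, KRT8, KRT10, KRT18 and KRT24, the last at only 174.2 and 196.3.

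Of 8 named leukocyte and endothelial genes 3 were detected (37.5%, against 72.8% of all named genes). The 3 were CD68, a lysosomal protein, at 639.6 and 958.9, the actin-bundling LCP1 at 535.8 and 750.6, and HLA-DRA at 313.0 and 341.4 on 1 probe and 167.6 and 169.9 on another. The endothelial receptor genes KDR (135.6 and 116.6) and TEK (121.6 and 146.3) and CD74, the chaperone of MHC class II (105.7 and 125.7), were not detected. CD14 (124.7 and 170.0) and LYZ (127.5 and 166.2) passed on replicate 2 alone, and the count without replicate 1 was 5.

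Of the genes listed for other organs 1 lay above the 75th percentile, and the rest were lower or not detected. ALB, which encodes serum albumin, the main secreted protein of liver, had 16290.1 and 19709.2 (14.13 ± 0.194, SD, n = 2), at percentile 97.6, and a second ALB probe had 6437.7 and 11818.7. The other liver genes of the list did not share this level. TTR, the plasma carrier transthyretin, had 305.2 and 430.1, while AFP (129.7 and 130.7), SERPINA1 (133.2 and 120.4) and FGB (110.1 and 132.8) were not detected. VIL1, an actin-binding protein of intestinal and renal brush border, had 634.4 and 767.6, and PAX8, a factor of kidney and thyroid, had 244.0 and 367.8. In all, 5 of 10 named genes of this list were detected (50%, against 72.8% of all named genes). Apart from ALB none lay above percentile 60.3, that of VIL1.

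**Figure D5:**
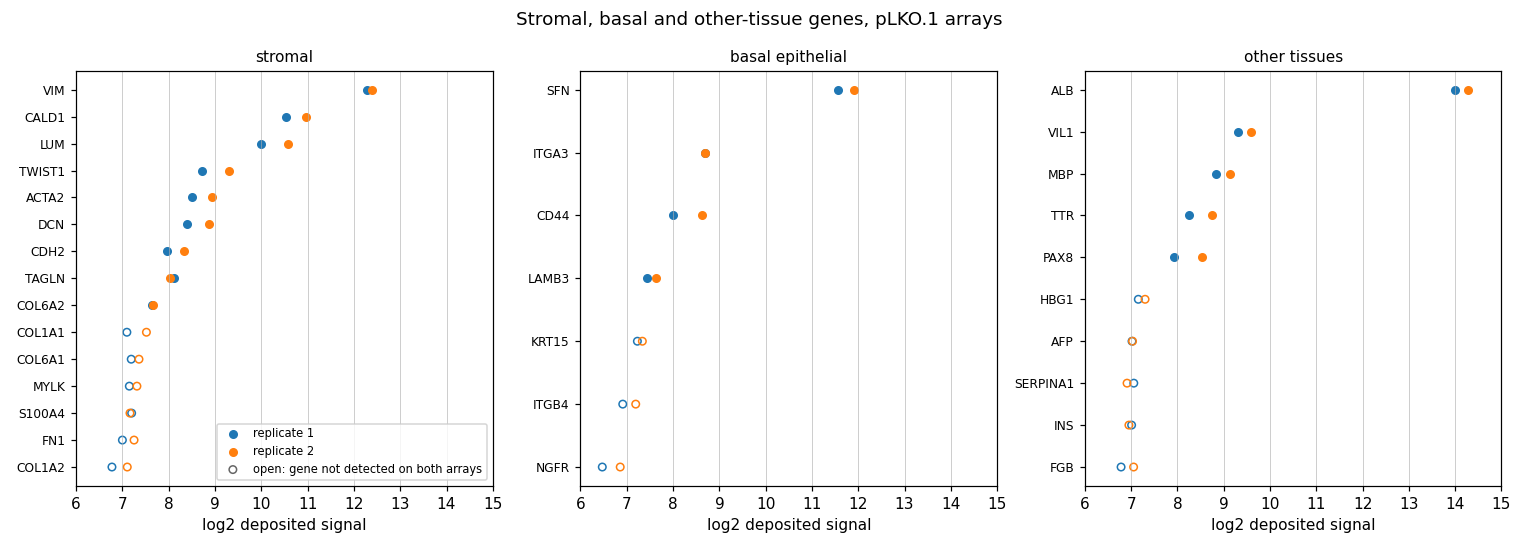
Log2 deposited signal (x axis) of the named stromal, basal epithelial and other-tissue genes on pLKO.1 replicates 1 (blue) and 2 (orange), with open circles for genes not detected on both arrays. VIM, SFN and ALB lie above 11.5 on both arrays, and the undetected genes lie near 7.

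Of the steroid receptors and their cochaperones, 12 of 17 named genes were detected (70.6%, against 72.8% of all named genes). The 12 had a median percentile of 75.6. The cochaperones were bright. HSP90AA1 and HSP90AB1, the chaperones that hold receptors ready for ligand, had 26115.4 and 30334.0 and 7911.9 and 9725.9. Other HSP90AA1 probes had 13800.1 and 20173.2, and 188.4 and 187.5, the latter at percentile 6.29. FKBP5, an androgen- and glucocorticoid-induced immunophilin, had 2710.1 and 4357.6, and its relative FKBP4 had 1996.3 and 2763.3. PTGES3 (p23) and STIP1 (HOP) lay at percentiles 92.4 and 86.3. The receptors themselves were dimmer. GPER1, a membrane receptor that responds to estrogen, had 784.1 and 943.2, the mineralocorticoid receptor gene NR3C2 had 574.9 and 684.9, and ESRRA, an orphan receptor of mitochondrial genes, had 710.1 and 748.2. The glucocorticoid receptor gene NR3C1 was not detected, with 150.7 and 153.0 on the brighter of 2 probes, nor was the vitamin D receptor gene VDR at 135.2 and 156.9. A further 7 genes of the list had no named probe.

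Of 12 named genes listed for steroid synthesis 7 were detected (58.3%, against 72.8% of all named genes), and 10 without replicate 1. The 7 include HSD11B2 (236.9 and 205.9), an enzyme that inactivates cortisol. AKR1C3, which reduces androstenedione to testosterone, had 2119.4 and 2988.0, at percentile 86.1. CYB5A, the cytochrome that aids the lyase step of androgen synthesis, had 2730.1 and 4415.9, and HSD17B12 had 3140.4 and 3170.4. SRD5A1, a steroid 5-alpha-reductase, had 204.0 and 290.1, near the edge. CYP11A1, the enzyme that starts steroid synthesis from cholesterol, at 154.6 and 158.7, and the aromatase gene CYP19A1, at 127.0 and 130.7, were not detected on either array. The list's median percentile was 53.5, and 32.1 without replicate 1, where 3 more genes (FDX1, H6PD and HSD17B6) passed.

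Of 20 named steroid-inactivating genes 13 were detected (65.0%, against 72.8% of all named genes). The 13 had a median percentile of 80.0, and 9 lay above the 75th. AKR1D1, the 5-beta-reductase known from liver bile acid synthesis, had 6743.3 and 8318.5 (12.87 ± 0.214, SD, n = 2), at percentile 94.8. AKR1C2, which inactivates dihydrotestosterone, had 3170.5 and 5665.9, and AKR1C4 had 1934.2 and 3386.3 on 1 probe and 147.5 and 172.9 on another. The glucuronidating enzyme genes UGT2B17 and UGT2B15 had 1013.5 and 1769.8 and 835.9 and 1642.0, and UGT2B10 and UGT2B11 lay at percentiles 56.3 and 56.0. Another UGT2B15 probe had 150.8 and 300.9 and passed on replicate 2 alone. Because members of the AKR1C and UGT2B families are near-identical in sequence, a probe may not separate them. These genes had some of the wider gaps between the arrays, with SDs of 0.592 for AKR1C2 and 0.689 for UGT2B15. CYP1A1 (170.3 and 159.8) and CYP3A4 (141.1 and 107.0), oxidizing enzymes of liver, were not detected on both arrays.

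Lineage transcription factor genes were nearly all detected, 27 of 28 (96.4%, against 72.8% of all named genes). Their levels were ordinary, with a median percentile of 51.2. NFIX, a nuclear factor I gene, had 12974.4 and 12900.7, and the helix-loop-helix inhibitors ID3, ID1 and ID2 had 9244.5 and 12231.4, 7705.7 and 8008.5, and 3955.1 and 5992.6. Another ID1 probe had 254.0 and 277.3, at percentile 24.8. XBP1, the factor of secretory capacity, had 4968.6 and 5823.0, and MYC had 1672.0 and 2761.7. The ETS factor genes ETV5, ETV4 and ETS2 lay between percentiles 18.8 and 45.7, and GATA3, a luminal factor of breast, lay at percentile 16.4.

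Homeobox genes of the HOX clusters other than HOXB13 were detected in 7 of 17 named cases (41.2%, against 72.8% of all named genes). HOXC6 was the brightest, with 993.1 and 1172.3, although its other probes (125.0 and 154.6, 122.2 and 158.4) were not detected. HOXB5, HOXB7 and HOXB8 had 595.4 and 804.7, 544.2 and 792.9, and 469.6 and 595.8. HOXC13 (316.1 and 349.7) and HOXC4 (214.5 and 254.2) were dimmer, and HOXB6 (174.8 and 164.0) lay at the edge. The detected members came from the B and C clusters, but HOXB1, HOXB3, HOXC5, HOXC8, HOXC9 and HOXC10 of these clusters were not detected on both arrays. HOXB3 passed on replicate 2 alone. The 3 named genes of the D cluster (HOXD3, HOXD4 and HOXD11) and HOXA2, the only named gene of the A cluster, were not detected either. A further 21 HOX genes had no named probe, so no statement is made on whole clusters.

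Cell cycle genes were mostly bright. Of 31 named genes 27 were detected (87.1%, against 72.8% of all named genes), at a median percentile of 85.1. CCND1, which encodes cyclin D1, had 28341.4 and 31174.3 (14.86 ± 0.0972, SD, n = 2), at percentile 98.8, and its kinase partner gene CDK4 had 4578.4 and 8053.2. The replication genes MCM7 and PCNA had 14317.4 and 13431.0 and 4620.9 and 7198.4, and the mitotic genes UBE2C and AURKA had 6552.9 and 7647.6 and 2816.5 and 3206.3. Other probes of some of these genes were dimmer. MCM7 had a probe that passed on replicate 2 alone (151.4 and 206.5), PCNA had a probe that was not detected (118.0 and 150.4), and a second UBE2C probe lay at percentile 33.0. CDKN1A, the p53-induced inhibitor p21, had 2401.0 and 3345.1 on 1 probe and 115.2 and 132.2 on another, which was not detected. CDKN2A, the INK4A inhibitor gene, had 523.2 and 578.0. CCND2 (137.8 and 133.8) and CCNE2 (125.6 and 138.9) were not detected, and MKI67, the usual proliferation marker, was detected at only 167.2 and 250.6.

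Of 24 named cancer genes 21 were detected (87.5%, against 72.8% of all named genes), at a median percentile of 65.5. Among receptor kinases FGFR3 (2032.1 and 2745.1) and ERBB3 (1762.8 and 2744.6) lay at percentiles 85.4 and 84.5, ERBB2 at percentile 69.3, MET at percentile 45.5 and EGFR at percentile 22.6. Other probes of these genes differed. Another FGFR3 probe lay at percentile 4.45, other ERBB3 probes lay at 6.69 and 6.40, and other EGFR probes (160.5 and 159.9, 144.0 and 112.1) were not detected. AKT1, the kinase below PI3K, had 5364.1 and 5911.9, and of the survival genes BCL2L1 had 2088.3 and 2182.6 and BCL2 had 171.5 and 199.4. The p53 ligase gene MDM2 (148.5 and 198.5), FGFR4 (143.3 and 200.5) and the chemokine receptor gene CXCR4 (147.7 and 187.5) passed on replicate 2 alone. SIAH2, the E3 ubiquitin ligase gene that the series targets, was detected with 334.5 and 490.5 (8.66 ± 0.39, SD, n = 2), at percentile 42.5, and its paralog SIAH1 had 2281.7 and 2987.0 on the brightest of 3 probes.

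Over the 17 hand-written lists, 292 of 461 genes had a named probe, 224 were detected and 68 were not. Names were at hand for probes of the authors' value table alone, which holds 24733 of the 47228 probes and all 15564 detected ones, so for the 169 genes without a named probe nothing is said of expression. For the same reason 72.8%, and not 33.0%, is the share against which the list counts stand. Because every detected probe is in that table and many others are not, 72.8% and the share of each list favour detected genes. The named part also differed between lists, from 24 of 27 luminal genes to 7 of 18 basal and 8 of 24 leukocyte and endothelial genes. The shares are therefore not shares of whole lists.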

How the data were processed

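The deposited signal is an intensity on a linear scale, with no background correction or normalization named in the file, beside a deposited detection p-value for each probe, per the file headers. The authors' value table is on a log2 scale: above a log2 signal of 11 its slope against the deposited signal was 1.01 and 1.00 on the 2 arrays, and its scaling between arrays is unknown. Its column medians were 7.60 and 7.61. The array software is not given in the sources used here. Values of the shSiah2 arrays, 6 columns, were not used.

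Signals were log2-transformed, averaged over both arrays and ranked among probes with a detection p under 0.01 on both, in Python 3.11.15 with pandas 2.3.3. Of 47228 probes, 18007 had 1 symbol (platform annotation, 17994 updated through Entrez IDs to RefSeq GRCh38.p14), 4 had several and 29217 none. Genes named are the 7 given markers, the 40 of highest signal, list members, and the 10 that differ most between arrays. The members and lists were chosen with earlier results of these data known, and pattern-based lists lost pseudogenes and non-members after values were seen. Genes on chromosome Y are not described. Calls and ranks were checked on simulated data. Alternatives used neqc with an offset of 16 and quantile normalization in limma 3.58.1 (R 4.3.3). No comparison and no test was made.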

Additional observations from a re-analysis of the deposited data

How the results depend on the processing

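With a detection p under 0.05 on both arrays 18263 probes and 10881 named genes were detected, with a detection p of 0 on both 12093 and 7963, with p under 0.01 on either array 18095 and 10805, without replicate 1 17720 and 10654, and without replicate 2 15939 and 9856. Of 120 list counts under these alternatives, 118 lay within 1.5 times the reported one. The exceptions were the leukocyte and endothelial genes, with 5 members detected on either array and 5 without replicate 1, against 3 reported. The correlation between the arrays was 0.985 with neqc, 0.988 with the authors' value table and 0.989 over all probes. Of the 40 genes of highest signal, 39 were shared with neqc and with quantile normalization, 40 with the authors' table, 36 and 37 when an array was left out, and 26 when each gene was the average over its detected probes, where genes with a bright and a dim probe drop by construction. Normalization moved list medians by at most 0.161 percentile points, the probe mean lowered them by up to 12.3, and leaving out replicate 1 moved 7 of 24 lists by over 5 points. No paired analysis was possible because only a single group was described and no test was made. Genes that missed detection have no order among themselves.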

Other observations

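The classes of non-coding genes differed in signal. Over all classes 9698 of 13321 named genes were detected (72.8%), at a median percentile of 55.0. Of 325 named long non-coding RNA genes 116 were detected, at a median percentile of 23.2. Of 133 small nucleolar RNA genes 49 were detected, also at 23.2. Of 12457 named protein-coding genes 9334 were detected, at 55.7. Other classes of few genes lay above the protein-coding median, with 3 of 3 ribosomal RNA genes at 96.1, 10 of 14 small nuclear RNA genes at 62.2 and 4 of 4 Y RNA genes at 61.6. SNAR-A1, a small non-coding RNA gene, was the only such gene among the 40 of highest signal, with 46515.7 and 45227.3.

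The 10 genes that differed most between the arrays after the median offset was subtracted were chosen by that difference. ERH, with 1066.5 and 4115.5, differed by 1.61 on the log2 scale, GNG10 by 1.35, CDC42SE2 by 1.28, GEMIN2 by 1.25, NGDN by 1.16, SKP1 by 1.14, SUMO2 by 1.13, SIN3A by 1.12 and STYXL1 by 1.11, all higher on replicate 2. RNU4-1, a spliceosomal RNA gene, was higher on replicate 1, with 510.5 and 296.7 (-1.13). Replicate 2 was brighter by a median of 0.11 among the dimmest 10% of detected probes and 0.39 among the brightest 10%, and by up to 0.45 in between, so the offset varied with signal.

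Of 2398 genes with more than 1 detected probe, 385 had probes over 50 percentile points apart, and the median gap was 20.7 points. Of the 40 brightest probes 24 carried no name here, as did 2968 of the 15564 detected probes.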
